A study of Mus musculus with 17 samples.

Results

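The complement genes followed in the infarcted mouse heart were the 3 chains of the recognition protein C1q (C1qa, C1qb, C1qc), the components C3 and C4b, the receptors C3ar1 and C5ar1 for the released fragments C3a and C5a, properdin (Cfp) and the C1 inhibitor (Serping1). These 9 were chosen by name as components and receptors of 1 pathway, with earlier results of these data known. All had a feature of their own among the 31647 features of the count table. All of them passed the filter on low counts that left 12301 genes to test. The hearts came from wildtype male C57BL/6J mice aged 8 to 11 weeks. In the myocardial infarction (MI) group the left anterior descending coronary artery was tied permanently, without reperfusion, and RNA was taken 5 days later from the dissected infarct zone (IZ, n = 9). Control mice had sham surgery without the ligation, and RNA was taken at the same time from the left ventricle (LV, n = 8). The comparison therefore set a dissected region against whole LV tissue, at 1 time after surgery.

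Complement is a cascade of plasma and tissue proteins that tags dying cells and microbes for removal. C1q binds to its target and, together with the proteases C1r and C1s, cleaves C4 and C2, which leads to cleavage of C3, the step at which the classical, lectin and alternative pathways meet. The small fragments C3a and C5a attract and activate leukocytes through C3ar1 and C5ar1, while properdin stabilises the C3 convertase of the alternative pathway and the C1 inhibitor blocks C1r and C1s. In tissues C1q is made mainly by macrophages, and C3, C4 and the C1 inhibitor are made by the liver and by stromal cells such as fibroblasts.

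The genes of C1q lie next to each other on the minus strand of chromosome 4 (mouse build mm10, GRCm38), and none of the 9 genes overlapped a gene on the other strand. C1qb (ENSMUSG00000036905, chr4:136880129-136886187), C1qc (ENSMUSG00000036896, chr4:136889804-136893065) and C1qa (ENSMUSG00000036887, chr4:136895917-136898803) spanned 18675 bases, with 3616 and 2851 bases between neighbours. The others were C3 (ENSMUSG00000024164, chr17:57203970-57228136), C4b (ENSMUSG00000073418, chr17:34728380-34743882), C3ar1 (ENSMUSG00000040552, chr6:122847138-122856161), C5ar1 (ENSMUSG00000049130, chr7:16246743-16259540), Cfp (ENSMUSG00000001128, chrX:20925454-20931555) and Serping1 (ENSMUSG00000023224, chr2:84765387-84775444). All are annotated as protein coding, and the microRNA gene Mir6978 lies within C3 on the same strand. The last 499 bases of C4b were 98.0% identical to those of its close relative C4a, so the counts of C4b could hold reads of C4a or lose reads to it.

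Promoter windows of 250 bases before to 50 bases after the transcription start, from RefSeq (GRCm38.p6), were matched for 6 of the 9 genes. No window was matched for C1qa, C4b or Serping1. The windows shown hold a match to a searched motif and belong to genes from both ranges of fold change given below. They are written 5′ to 3′ on the minus strand, the strand of the genes, and capitals mark the match. The motifs were GAGGAA (the core bound by PU.1, a transcription factor of macrophages), TTCNNNGAA (GAS, bound by STAT proteins) and TTGCNNAA (a core of C/EBP sites), each sought on both strands. The windows lie at chr4:136886151-136886450 for C1qb, chr4:136892865-136893164 for C1qc, chrX:20931506-20931805 for Cfp and chr17:57228087-57228386 for C3.
C1qb: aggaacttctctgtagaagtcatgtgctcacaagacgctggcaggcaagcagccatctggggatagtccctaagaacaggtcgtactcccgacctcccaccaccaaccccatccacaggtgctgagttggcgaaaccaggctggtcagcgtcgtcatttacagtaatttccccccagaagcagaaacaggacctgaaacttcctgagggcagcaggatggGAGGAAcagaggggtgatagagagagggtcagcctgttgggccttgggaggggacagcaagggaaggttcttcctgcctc
C1qc: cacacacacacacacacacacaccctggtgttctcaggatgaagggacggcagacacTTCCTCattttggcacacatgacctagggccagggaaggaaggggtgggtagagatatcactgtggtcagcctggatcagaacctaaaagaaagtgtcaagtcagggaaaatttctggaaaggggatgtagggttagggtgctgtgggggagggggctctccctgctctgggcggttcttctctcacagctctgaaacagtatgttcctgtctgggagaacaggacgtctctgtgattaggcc
Cfp: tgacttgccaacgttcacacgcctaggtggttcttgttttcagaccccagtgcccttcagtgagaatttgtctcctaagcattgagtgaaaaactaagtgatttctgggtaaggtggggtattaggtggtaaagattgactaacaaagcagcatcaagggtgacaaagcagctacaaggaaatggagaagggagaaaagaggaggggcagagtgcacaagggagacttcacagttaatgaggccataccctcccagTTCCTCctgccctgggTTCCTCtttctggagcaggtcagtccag
C3: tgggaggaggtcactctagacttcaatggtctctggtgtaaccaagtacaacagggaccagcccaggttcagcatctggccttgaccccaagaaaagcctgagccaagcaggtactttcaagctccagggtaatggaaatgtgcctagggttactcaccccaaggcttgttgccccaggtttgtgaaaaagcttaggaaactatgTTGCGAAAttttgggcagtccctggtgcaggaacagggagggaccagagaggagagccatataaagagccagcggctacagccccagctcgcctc

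GAGGAA was matched in 3 of the 6 windows, where 28.3% of all 32851 mouse promoter windows of this length hold it. In C1qb it began 30 bases before the start, on the strand shown. In C1qc it lay 193 bases before the start and on the opposite strand, so it reads TTCCTC in the sequence shown, and Cfp had 2 such matches just after the start. TTGCNNAA was matched only in C3 among the 6 windows, 45 bases before the start, and 10.8% of all windows hold it. TTCNNNGAA was matched in none of the 6, against 8.30% of all windows, and the windows of C3ar1 and C5ar1 held no match to any of the 3. A match describes letters in a window and was not tied to any measurement here.

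Transcripts were counted at their 3′ ends by massive analysis of cDNA ends, in which each molecule carries an identifier. Levels are given as CPM, counts relative to the TMM-scaled library size, with no division by length, since 3′ ends were counted. Means are given with the SD over the 8 sham or the 9 IZ libraries unless another n is named. Library totals ran from 1237675 to 4738307 counts. Mitochondrially encoded features took 22.9 to 32.4% of the counts in sham and 4.22 to 6.78% in the IZ. The exception was IZ replicate 1 with 19.5%. Results that rest on that library are given without it, save the correlations of deviations from the group means, which were not repeated. No label gave a batch, so no value could be repeated within batches. Cardiomyocyte markers (Myh6, Tnnt2, Tnni3, Ryr2, Pln, Myl2 and Ttn) summed to 49702 to 65123 CPM in sham and to 1699 to 20048 CPM in the IZ, and all 7 were lower in the IZ. The IZ median was 2997 CPM, and the top of the IZ range was replicate 1.

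All 9 complement genes were higher in the IZ than in sham LV, but they fell into 2 ranges. The C1q chains, both receptors and properdin were 6.28 to 14.0-fold higher, with each IZ library above each sham library. C3, C4b and Serping1 were 1.42 to 1.97-fold higher, and the libraries of the groups overlapped. Adjusted p values are from the quasi-likelihood test of edgeR, corrected by Benjamini-Hochberg over all 12301 genes, with a threshold of 0.05. By this test 9 of 9 members were higher, where 36.3% of all tested genes were higher, 33.1% lower and 69.5% changed in either direction. Scaled by total counts alone, 74.8% of the tested genes were higher and 12.4% lower, and 9 of 9 members were again higher. Of the 9, 6 had no overlap between the groups, where in 16.6% of all tested genes every IZ library lay above every sham library. The median log2 fold change was 2.74 over the 9 members and 0.05 over all tested genes. Since the 9 were chosen with earlier results of these data known, these contrasts describe them and do not test the pathway.

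**Figure D1:**
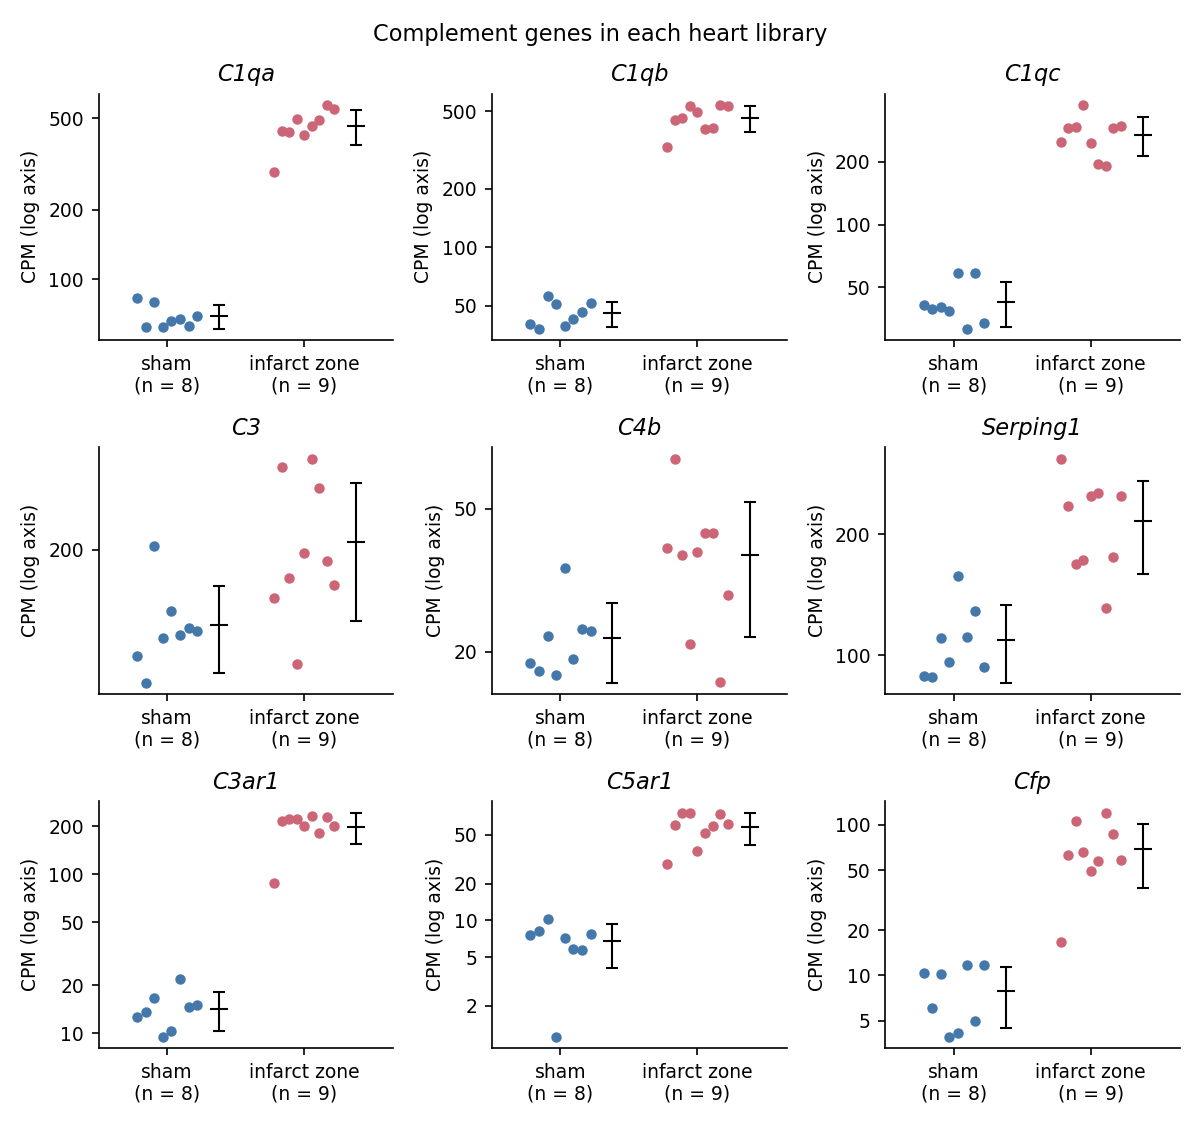
Level of each complement gene in every library, in CPM on a log axis, for sham LV (blue, n = 8) and IZ (red, n = 9), with the mean and SD in black. The groups are apart for C1qa, C1qb, C1qc, C3ar1, C5ar1 and Cfp and overlap for C3, C4b and Serping1.

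C1qa, the A chain of C1q, had 61.9 to 83.2 CPM in the sham libraries (median 66.7) and 292 to 572 CPM in the IZ libraries (median 464). On average 69.1 ± 8.17 CPM in sham became 462 ± 81.2 CPM in the IZ (mean ± SD), a log2 fold change of 2.74 (SE 0.14, edgeR adjusted p 3.64e-13). The lowest IZ library was replicate 1, and it was still above all sham libraries. C1qb, the B chain, had 38.0 to 56.2 CPM in sham (median 44.6) and 327 to 540 CPM in the IZ (median 462). Between the group means of 45.8 ± 6.70 and 460 ± 71.4 CPM, the fitted log2 difference was 3.33 (SE 0.14, edgeR adjusted p 3.53e-14). This was the largest rise of the 3 chains, 10.1-fold against 6.69-fold for C1qa. C1qc, the C chain, had 31.6 to 58.5 CPM in sham (median 39.9) and 191 to 375 CPM in the IZ (median 289). Its average went from 42.7 ± 10.3 to 270 ± 57.2 CPM, which is 2.65 on the log2 scale (SE 0.16, edgeR adjusted p 3.82e-12), or 6.28-fold. Its lowest IZ libraries were replicates 6 and 7, not replicate 1. A larger log2 fold change was fitted for 2.35% of all tested genes than for C1qb, for 4.52% than for C1qa and for 4.94% than for C1qc.

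C1q is assembled from equal numbers of the 3 chains, and the share of each chain in the summed counts of the 3 genes does not depend on how libraries are scaled. C1qb took 24.0 to 33.8% of the C1q counts in sham and 37.3 to 42.5% in the IZ. Its mean share was 29.1 ± 3.78% in sham and 38.6 ± 1.53% in the IZ, with 9 of 9 IZ libraries above every sham library (exact two-sided permutation p 4.11e-05, the smallest its 24310 splits can give, and 1.92e-04 adjusted over 14 ratios). In sham C1qa led with 43.9 ± 4.26%, and in the IZ C1qa and C1qb had about the same share, with C1qa at 38.7 ± 3.85%. The fall of the C1qa share passed the threshold (exact permutation p 0.0196, adjusted 0.0305), with 4 of 9 IZ libraries below the sham range. It did not pass without sham replicate 1 or 6 or without IZ replicate 1, 3, 4 or 5, with adjusted exact permutation p values of 0.0505 to 0.0631. C1qc took 27.0 ± 5.51% in sham and 22.7 ± 3.77% in the IZ, a difference that did not pass (exact permutation p 0.0766, adjusted 0.0894). Since the 3 shares add up to the whole C1q sum of a library, their tests are not independent.

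**Figure D2:**
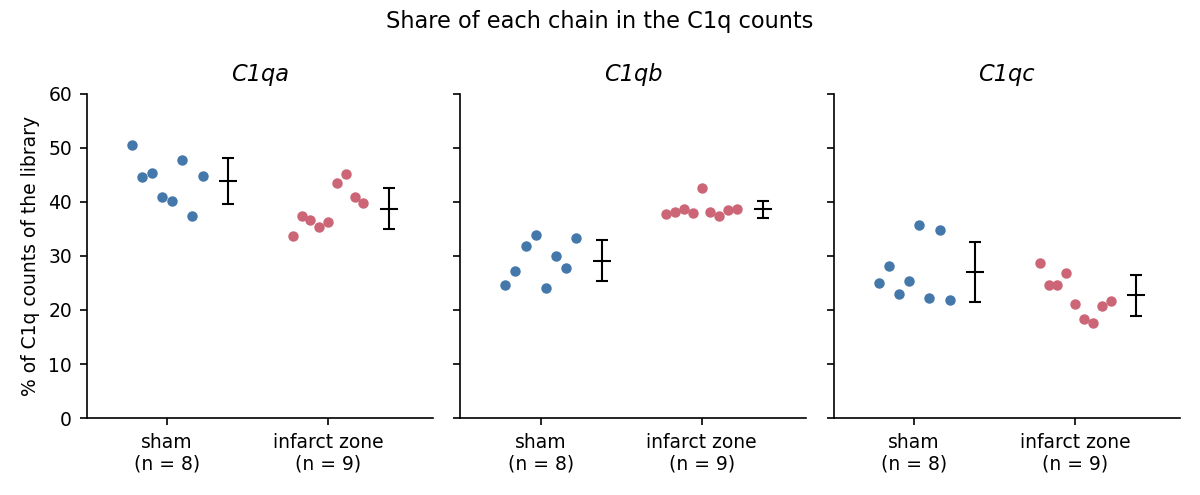
Share of C1qa, C1qb and C1qc in the summed counts of the 3 genes, in percent of each library's C1q counts, with the mean and SD in black (sham n = 8, IZ n = 9). The C1qb share is above every sham library in all 9 IZ libraries and varies least there.

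C3, the component on which the 3 activation routes converge, was the most abundant member in sham, with 114 to 203 CPM (median 141). In the IZ it had 124 to 294 CPM (median 191), and 3 of 9 libraries lay above every sham library. On average 145 ± 26.4 CPM in sham became 207 ± 58.7 CPM in the IZ (mean ± SD), a log2 fold change of 0.51 (SE 0.16, edgeR adjusted p 0.00729). This 1.42-fold rise was the smallest of the 9, and 32.9% of all tested genes had a larger log2 fold change. C4b, which is cleaved by C1s after C1q has bound, had 17.3 to 34.2 CPM in sham (median 20.6) and 16.5 to 68.9 CPM in the IZ (median 37.9). Of the IZ libraries, 6 were above every sham library and 1 was below all of them. Between the group means of 21.9 ± 5.48 and 37.2 ± 15.1 CPM, the fitted log2 difference was 0.77 (SE 0.22, edgeR adjusted p 0.00366). Without IZ replicate 2, its highest library, the IZ mean was 33.2 ± 10.01 CPM (SD, n = 8), and the rise still passed. C4a itself reached 14 counts at most in sham and averaged 4.62 CPM in the IZ, and it was not tested.

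C3ar1, the receptor for C3a, rose most of all 9 members. It had 9.48 to 22.1 CPM in sham (median 14.1) and 87.7 to 231 CPM in the IZ (median 217). Its average went from 14.3 ± 3.94 to 199 ± 44.5 CPM, which is 3.81 on the log2 scale (SE 0.19, edgeR adjusted p 4.18e-13), or 14.0-fold. Replicate 1 stood apart at 87.7 CPM from the other 8 IZ libraries, at 183 to 231 CPM, and without it the IZ mean was 213 ± 16.7 CPM (SD, n = 8). A share of 1.18% of all tested genes had a larger log2 fold change. C5ar1, the receptor for C5a, was the least abundant member in sham, with 1.12 to 10.3 CPM (median 7.45) from 2 to 15 counts a library. In the IZ it had 29.0 to 76.0 CPM (median 60.8), and the lowest of these was again replicate 1. On average 6.74 ± 2.67 CPM in sham became 58.3 ± 16.8 CPM in the IZ (mean ± SD), a log2 fold change of 3.14 (SE 0.25, edgeR adjusted p 1.56e-10), or 8.82-fold.

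Properdin, Cfp, had 3.90 to 11.8 CPM in sham (median 8.20) from 7 to 21 counts a library and 16.7 to 120.4 CPM in the IZ (median 62.6). Between the group means of 7.91 ± 3.44 and 69.4 ± 31.2 CPM, the fitted log2 difference was 3.17 (SE 0.32, edgeR adjusted p 8.95e-09). Relative to its mean it varied most of the 6 genes whose groups did not overlap. Its lowest IZ library was replicate 1, and replicates 7 and 3 were the highest. The same replicates 7 and 3 had the highest sums of the 7 neutrophil markers, at 220 and 175 CPM against 15.9 to 94.1 CPM in the other IZ libraries. In sham these markers summed to 5.00 to 12.3 CPM, below every IZ library. The 4 of them that could be tested all rose, among them S100a8 by 3.19, S100a9 by 2.93 and Csf3r by 5.17 on the log2 scale, while the defining marker Ly6g, named here after its values were seen, had no count in sham and at most 1 in any IZ library. The part of neutrophils in the Cfp level was not tested. IZ replicates 7 and 3 also held counts of the adipocyte gene Adipoq, 12 and 15, which are taken up below. Serping1, which blocks C1r and C1s, had 88.2 to 157 CPM in sham (median 103) and 131 to 308 CPM in the IZ (median 234). In the IZ, 8 of 9 libraries were above every sham library. Its average went from 109 ± 23.9 to 216 ± 56.2 CPM, which is 0.98 on the log2 scale (SE 0.16, edgeR adjusted p 1.20e-05), or 1.97-fold. Here replicate 1 was the highest IZ library, where it was the lowest for C1qa, C1qb, C3ar1, C5ar1 and Cfp.

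The order of the levels changed with the groups. In sham it ran from C3 over Serping1, C1qa, C1qb, C1qc, C4b, C3ar1 and Cfp to C5ar1. C3 and Serping1, C1qb and C1qc, C4b and C3ar1, C3ar1 and Cfp, and Cfp and C5ar1 overlapped in mean ± SD, while Serping1, C1qa and C1qb were apart from each other in this order in 8 of 8 libraries. In the IZ the order ran from C1qa over C1qb, C1qc, Serping1, C3, C3ar1, Cfp and C5ar1 to C4b. There only the steps from C1qb to C1qc and from C3ar1 to Cfp were larger than the spread, both in 9 of 9 libraries. Within libraries, the log2 ratio of the summed C1q counts to Serping1 was 0.55 ± 0.27 in sham and 2.497 ± 0.53 in the IZ, a 3.85-fold higher ratio (exact permutation p 8.23e-05, adjusted 1.92e-04). The ratio of C3 to Serping1 differed by -0.49 on the log2 scale and that of C3 to C4b by -0.20, and neither passed (adjusted exact permutation p 0.0610 and 0.290). C3 to Serping1 passed without sham replicate 5, at -0.55 (adjusted exact permutation p 0.0427), and without IZ replicate 7, at -0.62 (0.00808). The ratio of C3ar1 to C5ar1 was 0.60 higher on the log2 scale and did not pass (adjusted exact permutation p 0.0690), but it passed without sham replicate 4, the library with 2 C5ar1 counts, at 0.83 (adjusted exact permutation p 0.00192). It also passed with 1 count added in place of 0.5 (0.0409) and for medians in place of means (0.0262).

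Markers of macrophages and fibroblasts moved with these genes. The 8 macrophage markers all rose, and their sum was 87.5 to 134 CPM in sham and 423 to 832 CPM in the IZ, with the lowest IZ value in replicate 1. Among them Adgre1, Csf1r, Cd68 and Mrc1 rose by 3.19, 2.31, 4.09 and 1.15 on the log2 scale. The 7 fibroblast markers summed to 1273 to 2339 CPM in sham and 7714 to 14249 CPM in the IZ, and 6 of them rose while Dcn, at a log2 fold change of 0.04, did not pass. The 5 hepatocyte markers summed to 2.31 to 13.5 CPM in sham and to at most 1.63 CPM in any IZ library. Ahsg carried most of the sham sum, at 5.26 ± 3.25 CPM, while Alb had no count in sham and at most 1 in the IZ. In bulk tissue, more cells of a type and more RNA per cell cannot be told apart.

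Ratios to the summed counts of Adgre1, Csf1r, Cd68 and Mrc1 asked how far 6 members moved against the sum of these macrophage genes, and the answer depended on the genes used. C3ar1 rose more than the sum, from a log2 ratio of -2.57 ± 0.47 in sham to -1.40 ± 0.16 in the IZ, which is 2.24-fold (exact permutation p 8.23e-05, adjusted 1.92e-04). Of the 9 IZ libraries, 8 were above every sham library. The summed C1q counts rose slightly more than that sum, with a log2 ratio of 0.91 ± 0.24 in sham and 1.21 ± 0.18 in the IZ. This 1.24-fold difference passed (exact permutation p 0.00601, adjusted 0.0120), with 6 of 9 IZ libraries above the sham range. C5ar1 was 0.57 higher on the log2 scale (adjusted exact permutation p 0.0153), and 0.30 higher without sham replicate 4 (0.0348). The call was lost when libraries were thinned to the smallest total (0.0504) or when Adgre1 and Csf1r alone were used (0.0505). Cfp was 0.44 higher and did not pass (adjusted exact permutation p 0.203), with 2 of 9 IZ libraries outside the sham range. With Adgre1 and Csf1r alone, the differences of C3ar1 and C1q were 1.16 and 0.30 and still passed. Relative to Cd68 alone, an alternative chosen after seeing the data, the directions turned, since Cd68 rose more than every member. C1q was lower by -1.09, C5ar1 by -0.83 and Cfp by -0.96 on the log2 scale (adjusted exact permutation p 3.84e-04, 0.0274 and 0.0180), and C3ar1 differed by -0.23 and did not pass (0.243).

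**Figure D3:**
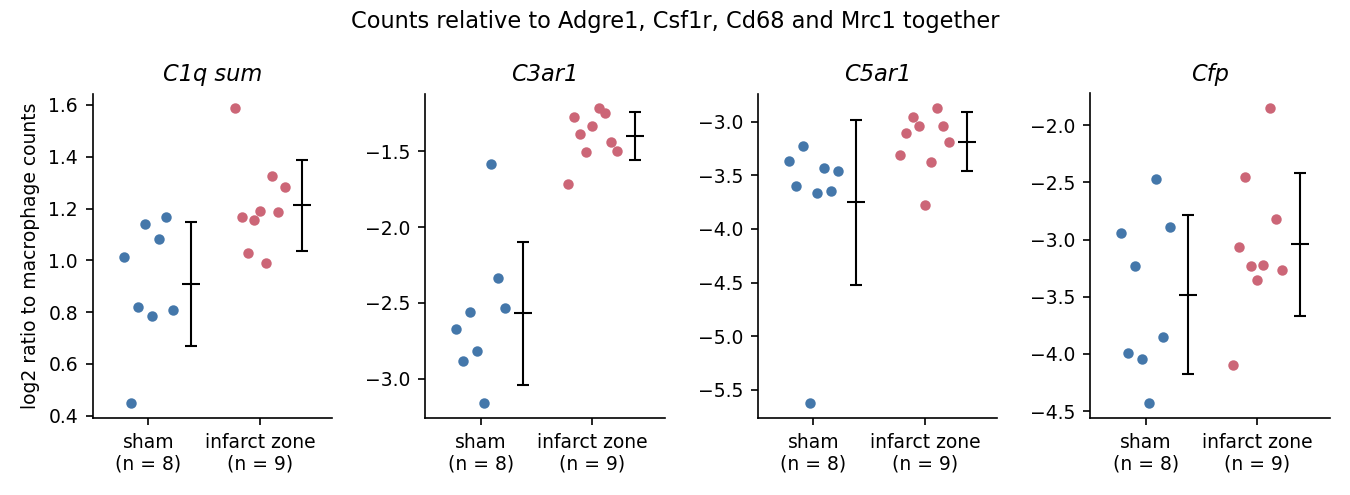
Log2 ratio of the C1q sum, C3ar1, C5ar1 and Cfp to the summed counts of 4 macrophage genes in each library, with the mean and SD in black (sham n = 8, IZ n = 9). Against this sum C3ar1 shows the widest step, C1q a small one, and Cfp overlaps widely, while against Cd68 alone none of the 4 was higher in the IZ.

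For C3, C4b and Serping1 the result depended on the fibroblast genes used. Relative to Col1a1, Col1a2, Pdgfra and Dcn together, C3 was 5.01-fold, C4b 4.35-fold and Serping1 3.57-fold lower in the IZ, with 9 of 9 IZ libraries below every sham library for each (adjusted exact permutation p 1.92e-04 for all 3). The collagens Col1a1 and Col1a2 made up 42.0 ± 6.003% of that sum in sham and 90.9 ± 3.06% in the IZ. Relative to Pdgfra and Dcn alone, an alternative chosen after seeing the data, all 3 were higher in the IZ, by 0.40 for C3, 0.61 for C4b and 0.89 for Serping1 on the log2 scale (adjusted exact permutation p 0.0348, 0.0269 and 2.88e-04). The 3 genes thus rose less than the sum with the collagens and more than that of Pdgfra and Dcn. Dcn made up most of the latter sum, averaging 864 CPM in sham and 886 CPM in the IZ, against 25.8 and 49.3 CPM for Pdgfra. Lum, Dpt and Tcf21, markers in neither sum and named here after their values were seen, rose by 1.75, 1.31 and 1.57. On the log2 scale each of them rose more than C3, C4b and Serping1.

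Within the IZ, members were set against the mean log2 CPM of the 4 macrophage and of the 4 fibroblast genes, 18 relations over 9 libraries. C3ar1 followed the macrophage index with a Pearson r of 0.97 (exact permutation p 0.00134, adjusted 0.0241) and a Spearman rho of 0.73 (exact permutation p 0.0311, adjusted 0.111). Without replicates 1 and 7, the 2 libraries farthest from the median of the index, r was 0.59 (exact permutation p 0.186), so the relation rests on them. The same held for C1qb, with r 0.85 (exact permutation p 0.00587, adjusted 0.0397) and rho 0.77 (exact permutation p 0.0214, adjusted 0.111), and r 0.39 without them. For C5ar1 r was 0.85 (exact permutation p 0.00661, adjusted 0.0397) and rho 0.87 (exact permutation p 0.00451, adjusted 0.0812), and without the same 2 libraries r was 0.92 (exact permutation p 0.00337). C3 followed the fibroblast index less firmly, with r 0.70 (exact permutation p 0.0365, adjusted 0.131) and rho 0.82 (exact permutation p 0.0108, adjusted 0.0969), and r 0.90 without the 2 farthest libraries. No rank correlation passed after adjustment, and the other 15 relations did not pass by r either, C3 with the fibroblast index included. Of these 15, C3 was not alone in a large r without the 2 libraries farthest from the median of the index. That r was -0.94 for Serping1 and 0.84 for Cfp with the macrophage index. With the fibroblast index it was -0.92 for C5ar1 and 0.81 for C4b.

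**Figure D4:**
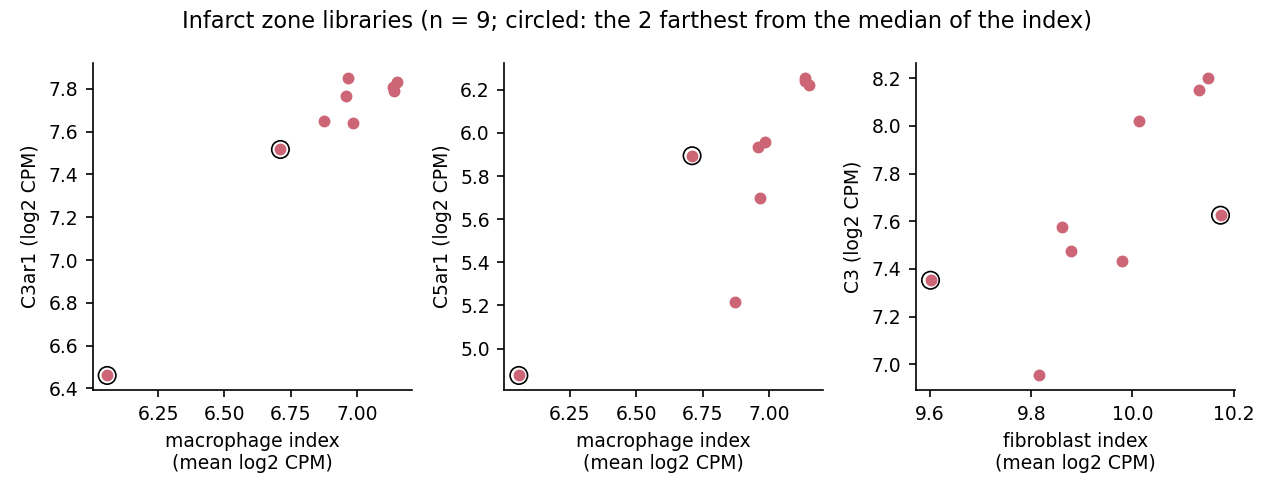
Log2 CPM of C3ar1 and C5ar1 against the macrophage index and of C3 against the fibroblast index (each index a mean log2 CPM of 4 genes) in the 9 IZ libraries, with the 2 libraries farthest from the median of the index circled. The C3ar1 relation leans on 1 circled library at the lower left, and C5ar1 also spreads along the index among the others.

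As a description without a test, deviations from the group means were correlated over all 17 libraries. Among the members, C3ar1 and Cfp went together most closely (r 0.78), C1qa and Cfp next (r 0.75), and C3 went with C4b (r 0.63). C1qa deviated with C1qb (r 0.61) but hardly with C1qc (r 0.05), although they are neighbours on the chromosome. Among the IZ libraries, replicate 1 was the lowest for C1qa and C1qb but not for C1qc. Serping1 ran against Cfp (r -0.71). Among 5760 protein-coding genes averaging 20 CPM or more, the closest to C1qa were Birc2 (r 0.90), Lyz2 (0.89) and Clta (0.86), and the closest to C1qb were Rpl35a (0.87), Rps23 (0.85) and Lgals1 (0.84). Those of C1qc were Hdgf (0.90), Snx27 (0.88) and Akt1 (0.84). C3 was closest to another complement gene, C1ra (0.78), then to Dmac1 (0.70) and Amd2 (0.70), and C4b to Msrb3 (0.85), Nfat5 (0.77) and Pxk (0.74). C3ar1 and Cfp shared Lilr4b (0.87 and 0.91) and Sec61b (0.87 and 0.91), with Coro1c (0.87) as the third for C3ar1 and Tagln2 (0.90) for Cfp. C5ar1 was closest to Nadk (0.90), Arhgap30 (0.87) and Edem1 (0.86), and Serping1 to Prelp (0.88), Rab6a (0.86) and Crispld2 (0.86). The libraries share depth and tissue makeup, which such values include. IZ replicate 1 was the lowest IZ library for C1qa, C1qb, C3ar1, C5ar1 and Cfp and the highest for Serping1. These correlations were not repeated without it, so those of the genes just named may rest on that library.

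The rest of the pathway was read from a list of 45 other complement genes, also drawn up with earlier results of these data known. Of these, 41 had a feature of their own and 17 could be tested. In edgeR 11 of the 17 rose, 4 fell and 2 did not pass (36.3% of all tested genes rose and 33.1% fell), with a median log2 fold change of 0.67 over the 17. The groups did not overlap in 7 of them, with the IZ higher in 5 (16.6% of all tested genes) and lower in 2 (16.5%). The other 4 of the 45 were not analysed here, Itgam because it shared a merged feature with an overlapping gene.

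Of the proteases that act with C1q, C1ra rose by 0.62 ± 0.17 (SE) on the log2 scale, from 22.5 ± 7.48 to 34.3 ± 6.89 CPM, and C1s1 by 0.69 ± 0.19 (SE), from 23.4 ± 4.30 to 37.8 ± 12.7 CPM. C1rb rose by 0.66 ± 0.25 (SE), a call that was lost without sham replicate 4, at 0.53 (edgeR adjusted p 0.0554), and without IZ replicates 2, 3 and 7 together, at 0.52 (0.0968). These rises lie near those of C3 and C4b and below that of C1q, whose smallest was 2.65. C1ra and C1rb were 96.6% identical over 499 bases at the 3′ end and C1s1 and C1s2 96.6% over 445, so their separate values are uncertain. Of the lectin pathway, which starts from sugar-binding proteins, the collectin Colec12 rose by 0.67 ± 0.18 (SE), though not when libraries were thinned (0.43, edgeR adjusted p 0.0984). Colec11 had a log2 fold change of -0.30 ± 0.23 (SE) and did not pass (edgeR adjusted p 0.244). Without IZ replicate 1 Colec11 passed as lower, at -0.48. Of 7 listed terminal components, which form the membrane pore, 5 had a feature and none had enough counts to test.

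Factor D, Cfd, is the protease that activates the alternative pathway and is known as a product of fat cells. It did not pass the filter. It had 1.64 to 20.7 CPM in sham, 178.5, 37.4 and 58.6 CPM in IZ replicates 2, 3 and 7, and at most 2.18 CPM in the other 6 IZ libraries. Among the IZ libraries only these 3 had a count of the adipocyte gene Adipoq, with 153, 15 and 12 counts, and the 5 adipocyte markers summed to 10.9 to 46.6 CPM in them and to at most 1.03 CPM in the others. The part of fat tissue in the member values was not tested directly, and the members were also compared without the 3 libraries. All 9 members still passed, with IZ means of 190 ± 57.2 CPM for C3, 31.0 ± 10.6 CPM for C4b and 55.8 ± 23.1 CPM for Cfp (SD, n = 6). Apart from Cfd, the genes with a feature that were not tested (24 with Cfd) reached 14 counts at most in sham and averaged at most 4.62 CPM in the IZ. Among them were Cfb and C2, named here after their values were seen. Their 3′ ends matched Gm20547 at 100% identity, over 500 bases for Cfb and 309 for C2. Reads of both could be lost to it, so their low values are uncertain.

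Regulators moved both ways. Clu, a chaperone that also blocks the terminal complex, rose from 353 ± 65.8 to 1296 ± 625 CPM (log2 fold change 1.87, SE 0.23), with no overlap. Cd55, which speeds the decay of C3 convertases on cell surfaces, rose by 0.91 ± 0.25 (SE), from 9.55 ± 4.04 to 18.4 ± 5.48 CPM. Cd59a, which stops the membrane pore on host cells, averaged 223 ± 29.3 CPM in sham LV and fell to 59.4 ± 21.7 CPM in the IZ (log2 fold change -1.91, SE 0.17), and 9 of 9 IZ libraries were below every sham library. Vtn, vitronectin, fell from 21.6 ± 6.71 to 8.32 ± 8.09 CPM, by -1.41 ± 0.34 (SE), with 8 of 9 IZ libraries below the sham range. IZ replicate 1 was the exception at 29.7 CPM, and Vtn passed without it (edgeR adjusted p 6.57e-10). Scaling by total counts alone took the call away, at -0.41 (edgeR adjusted p 0.179). Cr1l, the rodent membrane regulator Crry, had a log2 fold change of -0.25 ± 0.10 (SE) that passed narrowly (edgeR adjusted p 0.0358), and it passed as lower in 13 of 27 alternatives. Its call was lost without sham replicate 1 or 6 or without IZ replicate 2, 4, 5, 7, 8 or 9. Crry-ps matched the last bases of Cr1l at 96.8% identity, which leaves the value of Cr1l uncertain. Under scaling by total counts alone, Cr1l turned to 0.84 and passed as higher.

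Among the listed receptors, both integrin chains tested rose by over 3 on the log2 scale. Itgb2, the shared beta chain of complement receptors 3 and 4, rose from 5.98 ± 2.30 to 68.2 ± 18.9 CPM (log2 fold change 3.47, SE 0.25). Itgax, the alpha chain of complement receptor 4, rose by 3.55 ± 0.38 (SE), from 1.21 ± 0.99 to 13.0 ± 3.77 CPM. Cd93, a surface protein of endothelial and myeloid cells, rose by 1.22 ± 0.14 (SE), from 83.8 ± 22.2 to 195.6 ± 25.6 CPM, and in all 3 the groups did not overlap. C1qbp, which binds the globular heads of C1q but is mostly a mitochondrial protein, fell from 125 ± 25.8 to 41.2 ± 6.07 CPM, by -1.60 ± 0.13 (SE), with 9 of 9 IZ libraries below every sham library. Under the naming level of 10 CPM stood 3 further tested genes, named here after their values were seen, of which C1rl rose by 1.98 and the second C5a receptor C5ar2 by 1.64, while Fcna had a log2 fold change of 0.05 and did not pass. The 3′ end of C5ar2 matched those of other genes at 95% identity or more, so its value is uncertain.

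**Figure D5:**
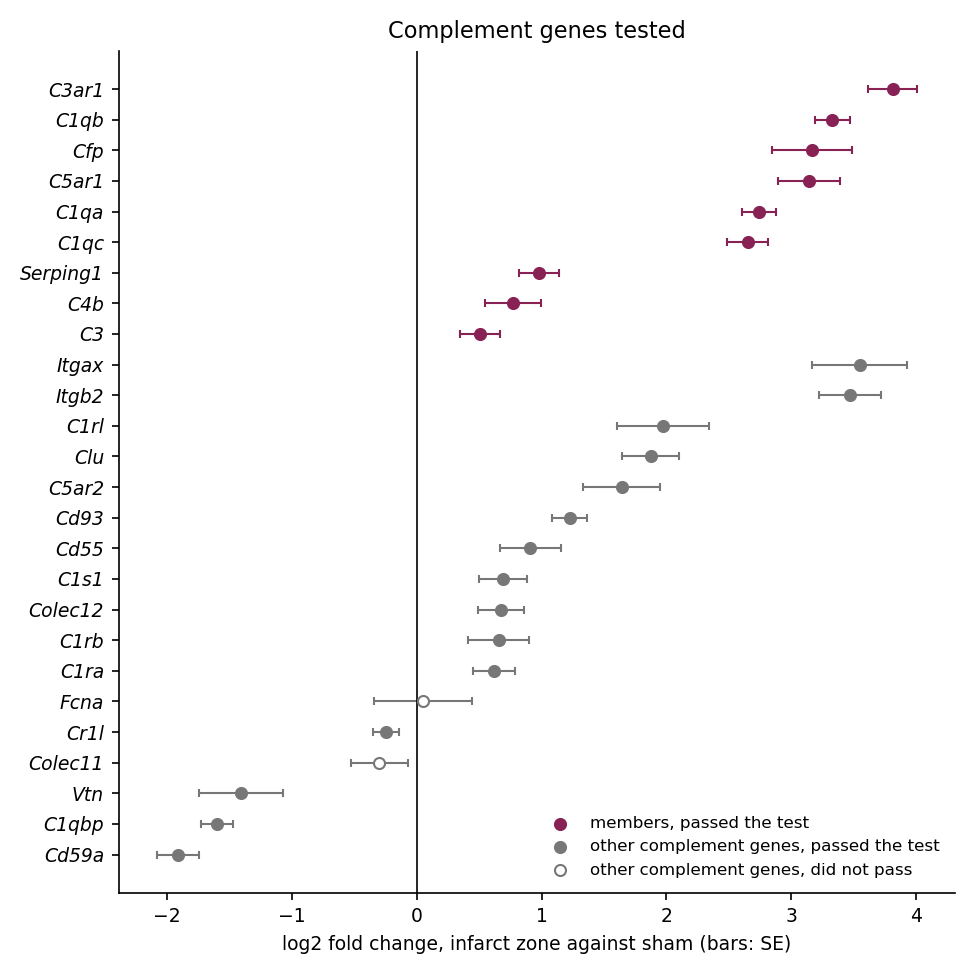
Log2 fold change of the IZ against sham LV with its SE for the 9 members (purple) and the 17 other complement genes tested (grey), with open points for genes that did not pass edgeR's quasi-likelihood test. The C1q chains, C3ar1, C5ar1, Cfp, Itgax and Itgb2 lie above 2.6, the C1 proteases lie beside C3 and C4b, and Cd59a, C1qbp and Vtn lie below -1.4.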

How the data were processed

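Total RNA of 8 sham LV and 9 IZ samples was sequenced at transcript 3′ ends with molecular identifiers. Per the study's methods, the authors trimmed reads with Cutadapt, mapped them to mm10 and counted them with HTSeq, and the processing notes also name Bowtie2. The annotation release, strand setting and treatment of multiply mapped reads are not given in the sources used here. The deposited values are raw counts per gene, used as they stand. Merged features, 35 in number, joined overlapping genes and were kept in library sizes and the test without a gene name. Libraries were checked for copies, and chi-square per degree of freedom between pairs was 2.56 to 281, so none was one. Each sample was 1 mouse per the study's methods.

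The two-sided quasi-likelihood F-test of edgeR 4.0.16 (R 4.3.3) was run on genes passing filterByExpr (minimum count 10), with TMM scaling, no covariates and Benjamini-Hochberg adjustment at 0.05. The F statistic gave the SE of each log2 fold change. On simulated data of this comparison with 200 of 10761 genes changed by 1 on the log2 scale, 72.0% of these were called. The simulation changed far fewer genes than the 69.5% called in the data, so it does not check the scaling there. For log2 CPM the prior count was 1. Ratios add 0.5 counts and were tested by exact permutation (SciPy 1.17.1, Python 3.11.15, NumPy 2.4.6, pandas 2.3.3). Similar 3′ ends were sought with BLAST 2.17.0 in the last 500 bases (at least 100 bases at 95% identity), and annotation and promoters came from GENCODE and RefSeq for GRCm38. Plots used Matplotlib 3.10.9.

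Named were the 9 members, listed complement genes averaging 10 CPM or more in either group, genes from the first 4 of marker lists and the 3 genes most alike in pattern. 1 further complement gene is not reported here. Members and lists were chosen with earlier results of these data known. Alternatives were other scalings, the Wald test of DESeq2 1.42.0, other count filters, thinning, leaving out mitochondrial features, a block for replicate number and omission of each library. Omitting IZ replicates 2, 3 and 7 together and the other macrophage and fibroblast indices were added after seeing the data.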

Additional observations from a re-analysis of the deposited data

Results flagged for a closer look

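Of 46 groups of values checked, 7 held a library that stood farther from the rest than a 95% limit allows (15.2%), and chance flags about 1 in 20. Sham replicate 3 had 203 CPM of C3, where the other sham libraries had 114 to 155 CPM. For C4b, sham replicate 5 had 34.2 CPM against 17.3 to 23.1 CPM in the others, and IZ replicate 2 had 68.9 CPM against 16.5 to 42.8 CPM. IZ replicate 1 had 87.7 CPM of C3ar1 against 183 to 231 CPM. IZ replicate 1 was also the library with the lowest macrophage marker sum, the highest cardiomyocyte marker sum and the highest mitochondrial share of the IZ. The part of any of these in its C3ar1 level was not tested. The log2 ratio of C5ar1 to the macrophage genes was -5.63 in sham replicate 4, which had 2 C5ar1 counts, against -3.66 to -3.23 in the others. The C1qb share of the C1q counts was 42.5% in IZ replicate 5 against 37.3 to 38.7% in the others. The log2 ratio of C3 to C4b was 3.51 in IZ replicate 8 against 2.04 to 2.77.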

How the results depend on the processing

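All 9 members passed as higher in each of 27 alternatives, with adjusted p values up to 0.0373 for C3 and 0.0347 for C4b (edgeR or DESeq2). The number of genes called was 7962 to 8614 of 11727 to 12642 tested when 1 library was left out. At a minimum mean of 50 counts it was 5239 of 6734, with 2747 higher and 2492 lower. That filter took out part of the 17 other complement genes, and 5 of those left rose. With a library left out, 10 to 12 of the other complement genes rose and 3 to 5 fell. Of all genes, 4155 to 4523 then rose and 3807 to 4235 fell. Of the other complement genes, 2 fell under total counts alone. That scaling moved the median of all genes by 1.09 on the log2 scale and called 9203 genes higher and 1524 lower, against 4470 and 4074 under TMM, and gave C3 1.61, or 0.52 above the shift, with Cr1l at 0.84 and Colec11 at 0.75. Fcna, at low counts, was -0.056 by DESeq2's Wald test, -0.53 without IZ replicates 2, 3 and 7 and -0.23 to 0.28 with 1 library left out. Relative to Pdgfra and Dcn alone, the ratios of C3, C4b and Serping1 turned to 0.40, 0.61 and 0.89. Relative to Cd68 alone, those of C1q, C3ar1, C5ar1 and Cfp turned to -1.09, -0.23, -0.83 and -0.96. Between 8 and 10 of 14 ratios passed. Of the genes set below the ratios, Cd68 rose by 4.09 on the log2 scale, more than each member. Dcn, most of the Pdgfra and Dcn sum, had a log2 fold change of 0.04. Why these markers moved by different amounts, and the cause of the other turns, was not tested. Replicate numbers did not pair the libraries (correlations of same-numbered deviations -0.22 to 0.13, own number best in 1 of 8). With the number as a replicate block, 8079 genes were called, all 9 members passed, Fcna was -0.21 and Cr1l was lost (adjusted p 0.0736, edgeR). C5ar1 and Cfp had few counts in sham, which limits their precision there.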
